A study of Mus musculus with 12 samples.

Results

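The extracellular matrix and basement membrane genes described here are 48 genes of mouse lymph node, 48 of the 32285 genes in the deposited feature lists. They were chosen by name, and the list was drawn up because Vcan was higher at day 3 in high endothelial cells: that level of Vcan in those cells selected it, so it is described below without a test. The 48 genes fall into 6 groups by role: 9 fibrillar and associated collagens, 14 basement membrane genes, 8 elastic and adhesive glycoproteins, 4 proteoglycans, 5 matricellular genes and 8 matrix enzymes and inhibitors. The study measured RNA of single lymph node cells in 12 libraries, 1 for each combination of Cre label, treatment and sorted fraction, to ask what loss of autophagy in endothelium does during inflammation. Every animal had the genotype ATG12 fl/fl, was of C57BL/6 background and 7 to 10 weeks old, and received tamoxifen, so the controls share the floxed allele and the drug. The libraries labelled Cre-positive carry CDH5 CreER, a tamoxifen-inducible Cre driven by the promoter of the endothelial cadherin gene, and those labelled Cre-negative lack it; fibroblastic, mural and immune cells are not the targets of that driver. Treatment was skin painting with 4% oxazolone, a contact sensitiser, with lymph nodes collected at day 3 or day 7, or painting with the acetone and olive oil solvent alone (vehicle). The 6 CD31 libraries are labelled endothelial cells and the 6 CD45 libraries immune cells. The labels give neither the sex nor the number of animals in a library.

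The extracellular matrix is the protein scaffold between cells, and the basement membrane is its thin sheet of type IV collagen, laminins, nidogens and perlecan beneath endothelium and around smooth muscle. In a lymph node, fibroblastic reticular cells wrap collagen fibres into conduits that carry lymph fluid to high endothelial venules (HEVs), the vessels through which lymphocytes enter from blood. Versican, encoded by Vcan, is a large chondroitin sulfate proteoglycan that binds hyaluronan and forms a loose provisional matrix in inflamed tissue. Timp1 encodes a secreted inhibitor of matrix metalloproteinases.

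The results turn on Vcan and Timp1, so the 250 bases before the RefSeq start of each are shown. Capitals mark each CCAAT box (CCAAT or its reverse complement ATTGG) and each GC box (GGGCGG or CCGCCC) that a search of both strands found. The Vcan window is chr13:89742513-89742762 on the minus strand and the Timp1 window chrX:20869916-20870165 on the plus strand, both in GRCm38.p6.
Vcan: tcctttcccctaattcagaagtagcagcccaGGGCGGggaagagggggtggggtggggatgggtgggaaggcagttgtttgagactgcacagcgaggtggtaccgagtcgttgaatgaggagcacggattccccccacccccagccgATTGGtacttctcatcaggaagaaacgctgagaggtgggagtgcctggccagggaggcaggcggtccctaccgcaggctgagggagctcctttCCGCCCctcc
Timp1: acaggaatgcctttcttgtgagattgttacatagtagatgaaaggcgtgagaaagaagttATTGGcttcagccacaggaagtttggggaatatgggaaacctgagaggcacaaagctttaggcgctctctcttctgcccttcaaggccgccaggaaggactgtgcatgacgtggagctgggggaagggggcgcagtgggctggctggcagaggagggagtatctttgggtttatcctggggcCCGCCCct
The Vcan window held 1 CCAAT box and 2 GC boxes, and the Timp1 window 1 of each. Neither held the AP-1 letters TGANTCA or the TATA letters TATAAA on either strand. Of 32851 RefSeq windows of this length, 33.85% held a CCAAT box, 32.74% a GC box, 6.749% the AP-1 letters and 12.37% the TATA letters. RefSeq windows were found for 33 of the 48 genes, of which 11 held a CCAAT box, 23 a GC box, 1 the AP-1 letters and 4 the TATA letters. Here a gene counts if any of its windows matched, whereas the shares above are of single windows, so the 2 are not directly comparable. A match is a description of letters and not a binding site. In GENCODE M21 (GRCm38), Vcan lies at chr13:89655312-89742509 on the minus strand. Timp1 lies at chrX:20870166-20874735 on the plus strand, inside a protein-coding gene on the opposite strand, Syn1. Col4a1 (chr8:11198423-11312826, minus strand) and Col4a2 (chr8:11312805-11449287, plus strand) lie head to head, with gene records that overlap by 22 bases.

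Each library held 36724887 to 76187731 unique molecular identifiers (UMIs, tags that each mark 1 captured molecule), and 5984 to 11636 barcodes passed as cells, with medians of 3367 to 6353.5 UMIs. Clusters built without the 48 genes were named from marker genes. Cells outside the named classes made up 26.4% of the CD31 day 3 library labelled Cre-positive and 14.8% of the CD31 vehicle library labelled Cre-negative. In the other CD31 libraries they made up 3.08% to 6.19%, and in the CD45 libraries 2.31% to 8.36%. They enter no class level and no fit. The CD31 libraries gave 311 to 753 HEV-like cells each, 2517 to 3831 other blood endothelial-like cells, 348 to 800 lymphatic endothelial-like cells, 137 to 496 Madcam1-high lymphatic endothelial-like cells and 17 to 50 mural-like cells. The same libraries gave 25 to 551 cycling blood endothelial-like cells, a separate class that was not fitted. Fibroblastic cells were scarce there (0 to 40 per library) and were taken from the CD45 libraries instead, with 662 to 1499 reticular, 72 to 326 adventitial and 77 to 358 Inmt-high fibroblastic-like cells each. Against its label, the CD45 fraction therefore held non-immune cells: Ptprc, which encodes CD45, was at 13.9 to 17.3 CPM (counts per 1 M, the UMIs of a gene scaled to the same total of UMIs in each class and library) in reticular cells and at 934 to 1104 CPM in monocyte/macrophage-like cells. Any pair of libraries shared 0.101% to 0.384% of cell barcodes of the smaller one. The targeted gene, Atg12, was not lower but higher under the Cre-positive label in other blood endothelial-like cells. It was at 48.2 to 56.2 CPM in the 3 libraries labelled Cre-negative and 65.4 to 79.4 CPM in the 3 labelled Cre-positive. Whether the counted 3′ tags lie outside the deleted part was not examined, so these levels do not check the deletion. Values below are CPM of UMIs summed over the cells of a class in a library, given for vehicle, then day 3, then day 7; at each, the labelled Cre-negative value precedes the Cre-positive one. A 3′ assay counts a transcript once whatever its length, so CPM compares captured molecules between genes.

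The RNA of the 9 fibrillar and associated collagens was highest in fibroblastic cells and low in endothelium, apart from Col14a1 in Madcam1-high lymphatic cells. Basement membrane RNA was found in both. Of the 48 genes, 19 had their highest mean level in adventitial, 12 in Inmt-high and 1 in reticular cells. The highest class of the others was for 7 other blood endothelial-like, for 3 lymphatic endothelial-like, for 3 mural-like, for 2 HEV-like and for 1 Madcam1-high lymphatic endothelial-like cells. A level of at least 10 CPM in every library was reached by 45 of the 48 genes in reticular, 45 in Inmt-high and 43 in adventitial cells. It was reached by 37 in mural-like, 29 in lymphatic endothelial-like, 27 in Madcam1-high lymphatic, 26 in HEV-like cells and 27 in the other blood endothelium. In immune cells the same count was 3 in monocyte/macrophage-like, 2 in B cell-like and 1 in T cell-like cells. For 14 of the 48 genes every library of the highest class was above every library of the class with the second highest mean. For the other 34 the 2 classes overlapped, so their order is one of means alone. The same count over all genes was not made, so nothing particular to the 48 genes is read from the 14. These are levels of clusters within 1 clustering and are given without a test.

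**Figure D1:**
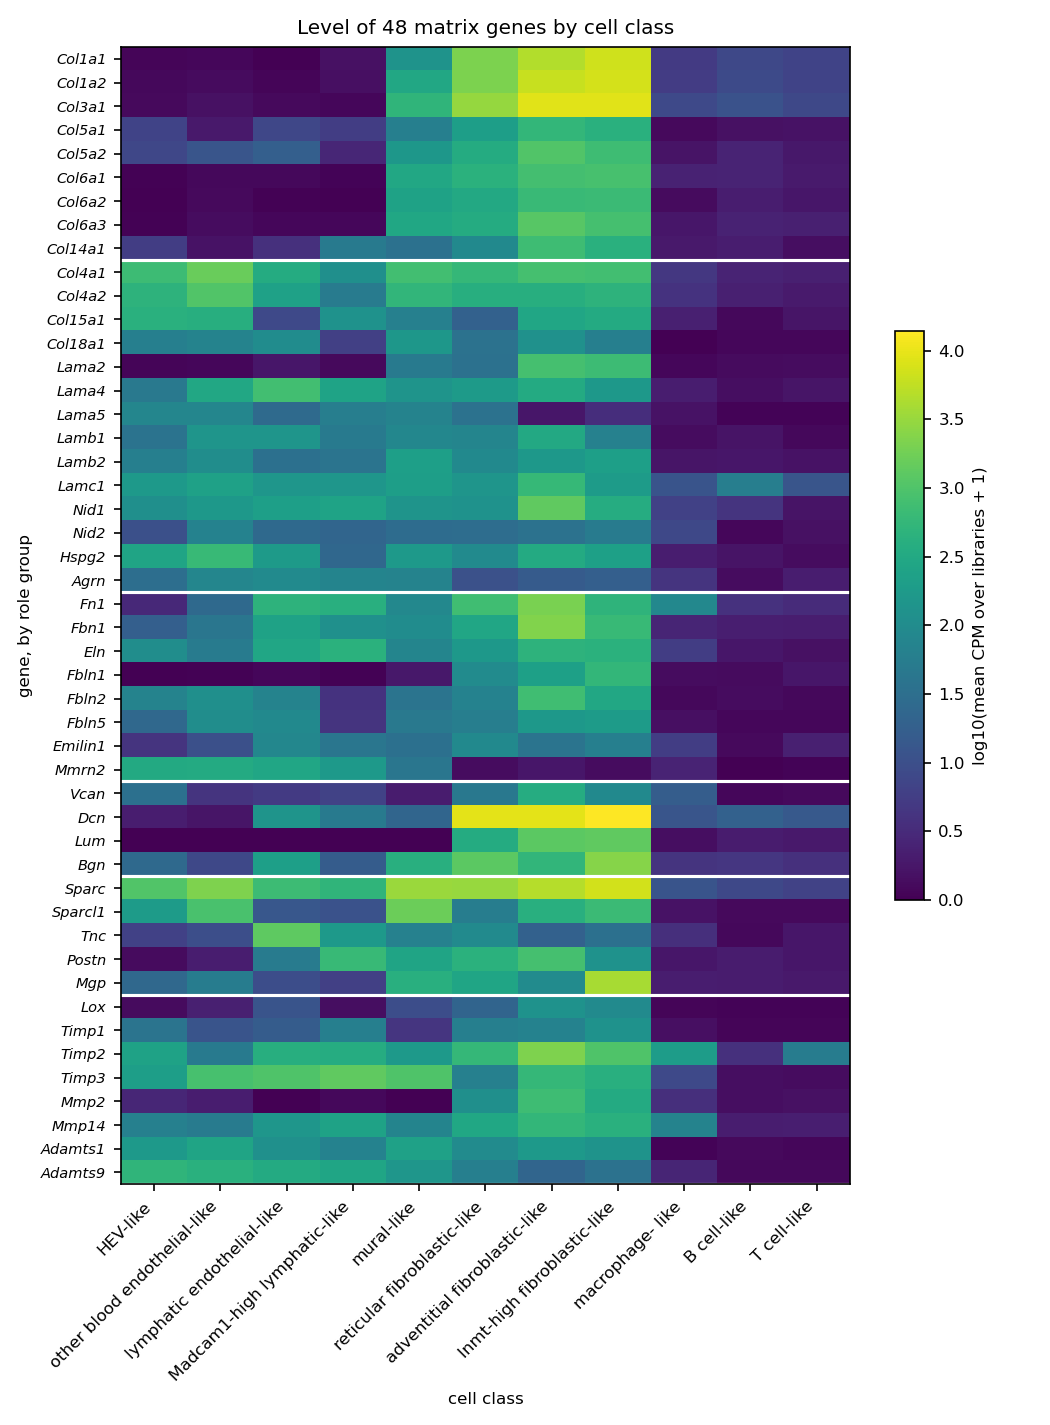
Mean level of each of the 48 genes (rows, grouped by role) in each cell class (columns), as log10 of CPM plus 1, averaged over the libraries of the fraction. The 9 collagens in the top rows are high in the fibroblastic columns and low in the 4 endothelial ones, apart from Col14a1 in Madcam1-high lymphatic cells. Col4a1 peaks in other blood endothelial-like cells at a mean of 1546 CPM.

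Among the fibrillar collagens, Col3a1, a major fibre-forming chain of soft tissue, had a mean of 9119 CPM in adventitial, 9010 CPM in Inmt-high and 3110 CPM in reticular cells. Col1a2, a chain of type I collagen, had a mean of 7380 CPM in Inmt-high and 6262 CPM in adventitial cells. The 9 genes of this group summed to 883 to 3456 CPM in the mural-like cells of the 5 libraries with at least 20 of them, where free RNA was estimated at 2.07% to 25.2% of their UMIs and its part in the sum was not tested. In HEV-like cells the sum was 12.6 to 29.6 CPM, and in other blood endothelial-like cells 9.33 to 19.7 CPM. Col14a1, a fibril-associated collagen, was the one of the 9 that reached 10 CPM in every library of Madcam1-high lymphatic cells, at 34.7 to 81.0 CPM.

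The 14 basement membrane genes summed to 4505 to 5153 CPM in other blood endothelial-like cells, with the 6 libraries close together. In HEV-like cells the sum was lower, at 1912 to 2826 CPM. Adventitial cells spanned 4075 to 6863 CPM and reticular cells 1444 to 2340 CPM. Col4a1, which encodes the alpha-1 chain of the type IV collagen network, gave 1528, 1462, 1385, 1523, 1649 and 1728 CPM in other blood endothelial-like cells. HEV-like cells gave 664.5, 689, 645, 769, 504 and 845 CPM. The 2 classes did not overlap at any library. Lama4, a laminin chain of vessel basement membranes, peaked in lymphatic endothelial-like cells at a mean of 783 CPM, against 46.0 CPM in HEV-like cells. Lama5, a laminin chain of mature vessels, had means of 77.5 CPM in HEV-like and 79.7 CPM in other blood endothelial-like cells, and 0.808 CPM in adventitial cells. Lama2, the laminin chain of muscle and stroma, was split the other way, with a mean of 815 CPM in adventitial, 34.2 CPM in reticular and 0.127 CPM in HEV-like cells. Nid1, which links laminin to type IV collagen, peaked in adventitial cells at a mean of 1339 CPM. Lamc1, the gamma chain shared by most laminins, had a mean of 57.0 CPM in B cell-like cells against 11.3 CPM in T cell-like cells.

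**Figure D2:**
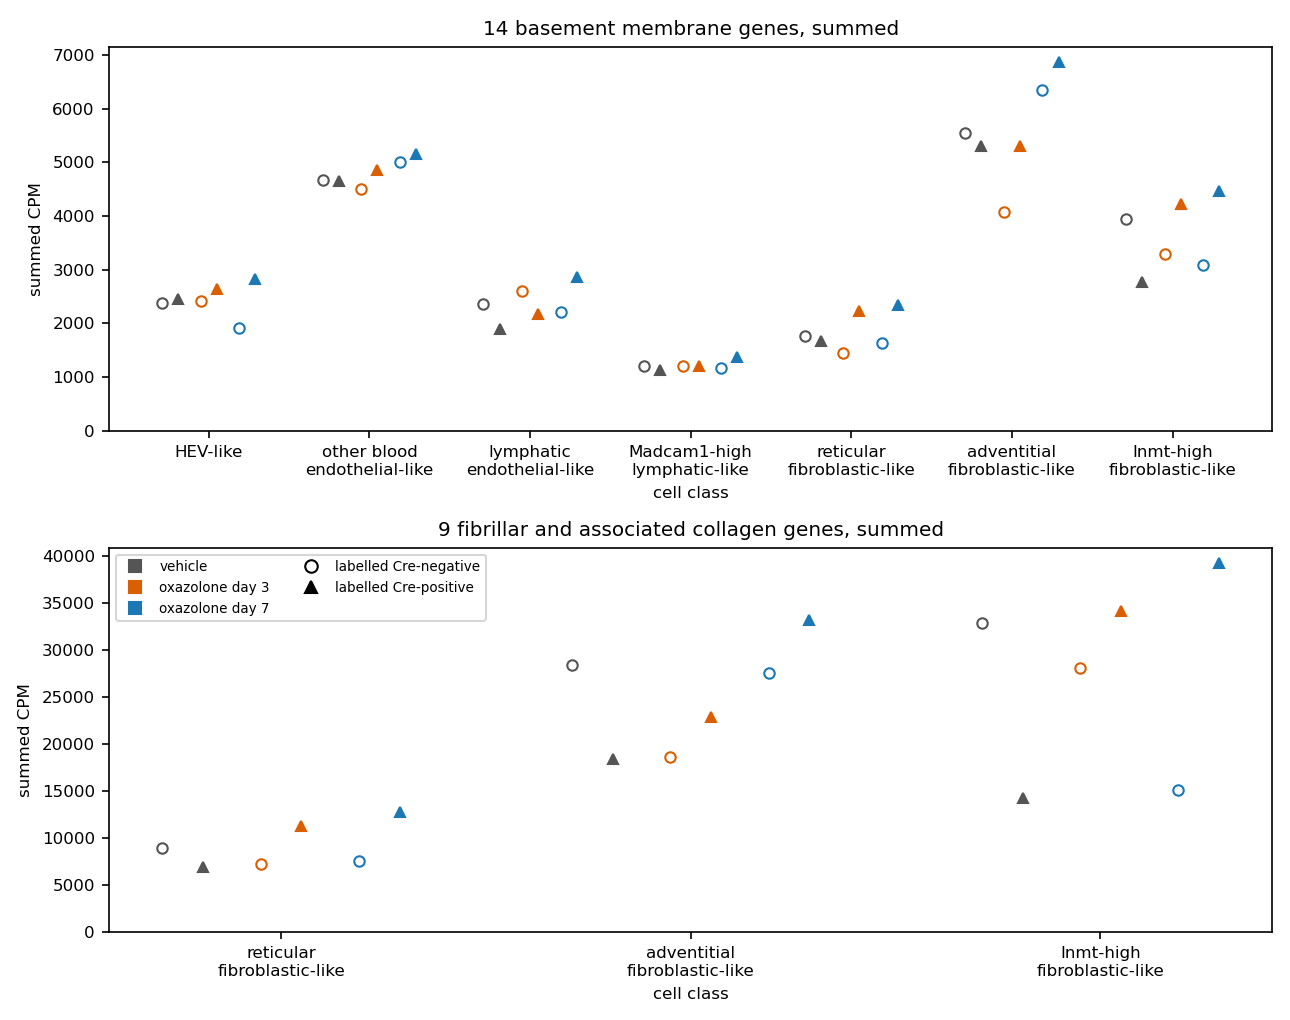
Summed CPM of the 14 basement membrane genes and of the 9 fibrillar and associated collagens by cell class (linear axes, the collagens for the 3 fibroblastic classes), 1 point per library, coloured by treatment and shaped by Cre label. Basement membrane sums differ little between libraries of other blood endothelial-like cells (4505 to 5153 CPM), and those of HEV-like cells all lie below them.

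Of the elastic and adhesive glycoproteins, Fbn1, which encodes the microfibril protein fibrillin-1, had a mean of 2308 CPM in adventitial and 277 CPM in reticular cells. Fn1, fibronectin, had means of 2024 CPM in adventitial, 737 CPM in reticular, 483 CPM in lymphatic endothelial-like and 2.03 CPM in HEV-like cells. Mmrn2, an endothelial surface glycoprotein, showed the reverse, with means of 332 CPM in HEV-like cells, 335 CPM in other blood endothelial-like cells and 0.396 CPM in reticular cells. Of the proteoglycans, Dcn, which encodes the small collagen-binding proteoglycan decorin, had the highest mean of all 48 genes, at 13820 CPM in Inmt-high cells. Bgn, its relative biglycan, had means of 2428 CPM in Inmt-high and 1261 CPM in reticular cells. Of the matricellular genes, Sparc, a collagen-binding secreted protein, was high in every stromal class, from a mean of 511 CPM in Madcam1-high lymphatic to 7128 CPM in Inmt-high cells. Mgp, matrix Gla protein, an inhibitor of calcification, had a mean of 3920 CPM in Inmt-high and 273 CPM in reticular cells. Tnc, tenascin-C, peaked in lymphatic endothelial-like cells at a mean of 1318 CPM, against 96.6 CPM in reticular cells. Among enzymes and inhibitors, Timp2 had a mean of 2160 CPM in adventitial cells and Timp3 1326 CPM in Madcam1-high lymphatic cells. Adamts9, a protease that cleaves versican, had its highest mean, 513 CPM, in HEV-like cells.

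Vcan was highest in adventitial cells in every treatment, and in HEV-like, reticular, Inmt-high, lymphatic endothelial-like and monocyte/macrophage-like cells both day 3 libraries had the highest levels of the 6. In adventitial cells it was at 327, 291, 387, 441, 298 and 408 CPM, with both day 3 libraries above both vehicle libraries and the day 7 libraries spread over the range of both (log2 change 0.32, SE 0.20, adjusted p = 0.60). In Inmt-high cells it was at 62.9, 44.5, 199, 148, 34.0 and 68.6 CPM, and in reticular cells at 23.9, 32.4, 62.2, 80.6, 33.5 and 31.6 CPM. In both of these classes both day 3 libraries were above the 4 others. HEV-like cells gave 9.28, 15.1, 92.7, 56.0, 10.85 and 10.1 CPM, with exact 95% Poisson intervals of 84.8 to 101.2 and 50.2 to 62.4 CPM for the day 3 libraries, which cover counting error only. Both day 3 libraries were again above the 4 others, and the fitted log2 change against vehicle was 2.57 (SE 0.29). This is the value that selected the gene. At least 1 Vcan UMI was found in shares of HEV-like cells of 5.32%, 2.73%, 29.03%, 16.8%, 5.18% and 6.11%. Thinned to 1000 UMIs per cell it was 0.266%, 0.744%, 7.56%, 4.44%, 0.930% and 0 of 311 cells, which allows a share of up to 1.18% (exact Clopper-Pearson). Among CD31-library B cell-like cells the unthinned share was 0 to 0.346%, at median depths of 2929 to 3656 UMIs per cell against 6839 to 10354 in HEV-like cells.

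Vcan was lower in the other endothelial classes. Other blood endothelial-like cells were at 2.65 to 3.90 CPM in all 6 libraries, with 2.96 and 3.63 CPM at day 3. Lymphatic endothelial-like cells gave 1.73, 2.57, 4.89, 6.54, 3.81 and 4.32 CPM, and Madcam1-high lymphatic cells 2.09, 2.48, 15.1, 3.15, 2.58 and 7.95 CPM, where the day 3 library labelled Cre-negative stood apart. Of the cycling blood endothelial-like cells, 2.13%, 0%, 6.21%, 2.36%, 4.00% and 2.82% had a Vcan UMI. Their median depths at day 3 were 9936 and 7140 UMIs per cell, against 2798 and 3716 in other blood endothelial-like cells. Thinned as above, the day 3 shares were 0.345% and 0 of 551 cells, against 0.129% and 0.261% in other blood endothelial-like cells. No Vcan UMI was counted in the mural-like cells of 5 libraries, and in the day 3 library labelled Cre-positive 1 of 24 cells had one. With 17 to 50 cells a library, the exact upper limits on the share of cells with a UMI were 7.11% to 21.1%, which limits detection and not how many cells expressed the gene. Monocyte/macrophage-like cells gave 3.41, 16.5, 24.7, 33.0, 5.70 and 9.38 CPM. In lymphatic endothelial-like and in monocyte/macrophage-like cells both day 3 libraries were above the other 4, and the change did not pass the test (edgeR adjusted p = 0.68 and 0.37). The lymphatic endothelial-like levels rest on few cells. At day 3, 10 of 348 and 11 of 390 had a Vcan UMI, against 13 of 664 and 17 of 800 at day 7. Free RNA, from barcodes with 1 to 50 UMIs, held Vcan at 1.63, 2.48, 20.2, 4.04, 5.07 and 3.08 CPM in the CD31 libraries. HEV-like cells were above the free RNA of their own library in all 6. In the day 3 library labelled Cre-negative free RNA was at 20.2 CPM. The 15.1 CPM of Madcam1-high lymphatic cells and the 4.89 CPM of lymphatic endothelial-like cells there lay below it. Free RNA was estimated to make up 0.94% to 5.11% of the UMIs of HEV-like cells and 1.58% to 13.4% of those of Madcam1-high lymphatic cells, with 2.35% in that library. With the estimated free RNA subtracted, 42 levels of Vcan over classes and libraries were read again, and all 42 were judged the same. Beyond that, the part of free RNA in these levels was not tested.

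**Figure D3:**
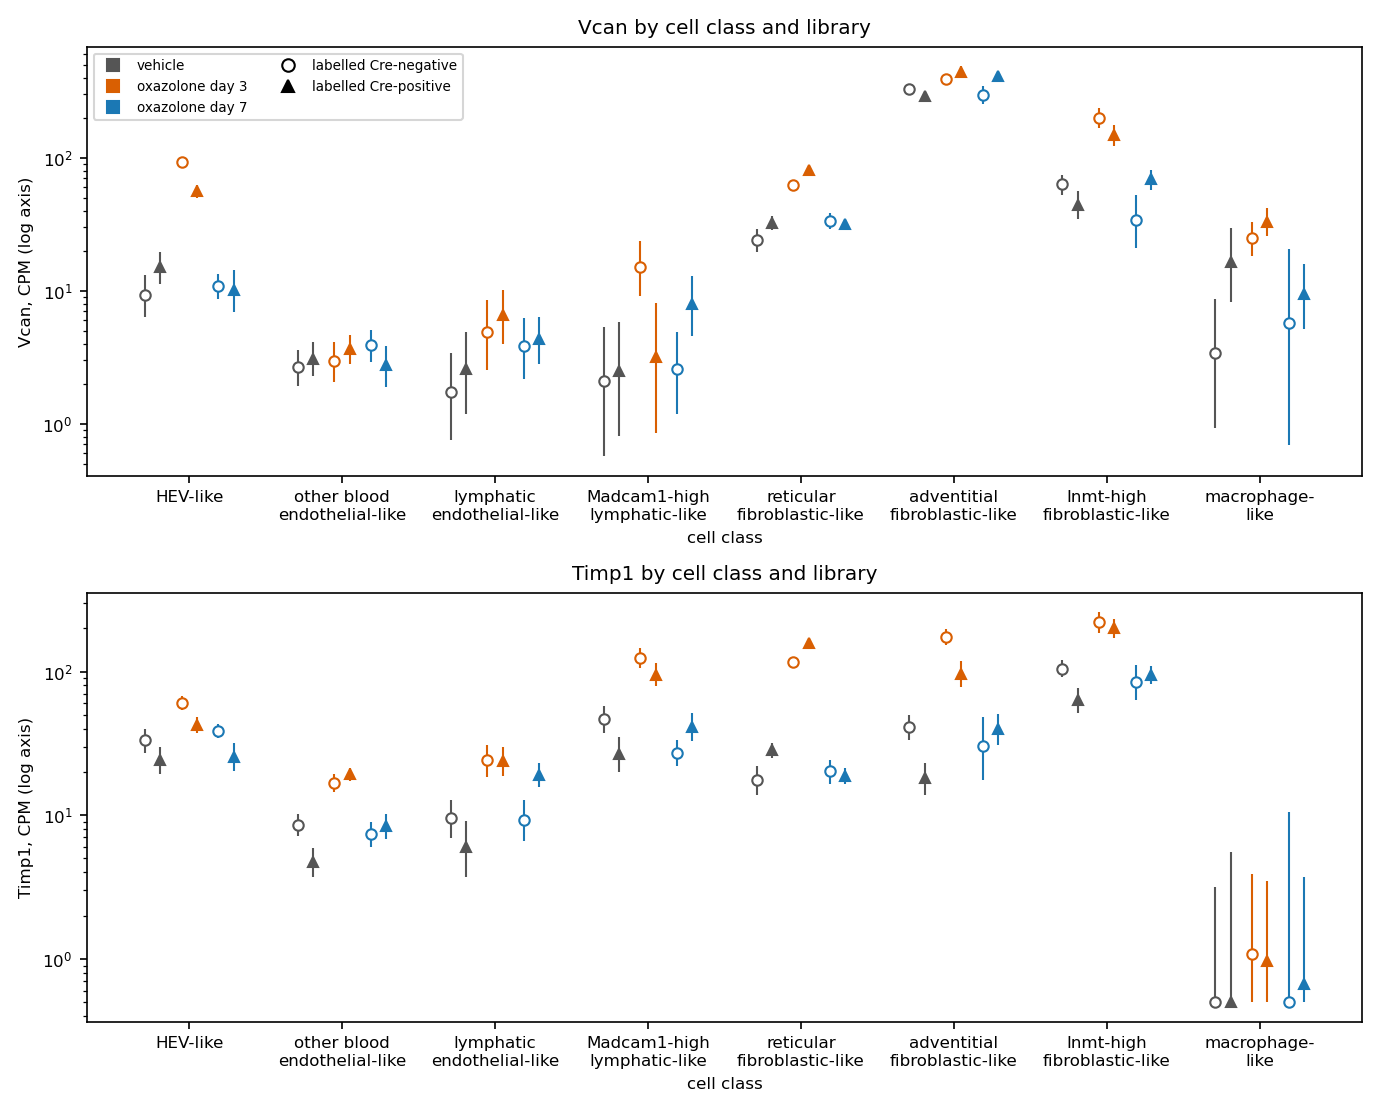
Level of Vcan and of Timp1 in CPM (log axis, 0 drawn at 0.5) in each library and cell class, with exact 95% Poisson intervals as bars, coloured by treatment and shaped by Cre label. In HEV-like, lymphatic endothelial-like, reticular, Inmt-high and monocyte/macrophage-like cells both day 3 points of Vcan lie above the other 4, and other blood endothelial-like cells lie at 2.65 to 3.90 CPM in all 6 libraries. The day 3 points of lymphatic endothelial-like cells rest on 10 and 11 cells with a Vcan UMI.

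Conditions were compared with edgeR's quasi-likelihood test on the summed UMIs, with treatment and Cre label as additive terms over 6 libraries, and p-values were adjusted by Benjamini-Hochberg over all genes tested in a class. With 1 library per group, 2 residual degrees of freedom remain. No group has a replicate, so any interaction of label and treatment counts as error. A difference between animals goes partly into the treatment and label terms, and only the rest counts as error. The p-values rest on that error in these libraries and do not measure a spread between replicates. The day 3 and day 7 comparisons share their vehicle libraries. In HEV-like cells at day 3, the comparison that selected Vcan, 36 of the 48 genes passed the filter on low counts. Vcan is left out of the calls given here. Of the other matrix genes, the edgeR adjusted p was under 0.05 for Timp1 and Sparcl1, beside 1.53% of all 11842 genes. Since this contrast chose the list, nothing is read from these calls, and the values are given as description. Without the day 3 library labelled Cre-negative no gene was called in this class, and Timp1 and Sparcl1 were both lost without either day 3 library. Timp1 was also lost without either vehicle library and in cells with a Y-linked UMI. DESeq2 gave an adjusted p to 3790 of 20405 genes and to 20 of the 48, with none for Vcan and Timp1, which it could therefore not call. It called 4 of these 20, Col18a1 higher and Sparcl1, Timp3 and Adamts9 lower, beside 8.79% of genes. Shares of genes called by DESeq2 are here and below over genes with an adjusted p. Sparcl1, a SPARC relative made by quiescent vessels, was at 296, 212, 83.4, 96.0, 189 and 244 CPM, and Timp1 at 33.2, 24.3, 60.7, 42.7, 38.6 and 25.5 CPM. Both day 3 libraries were below the other 4 for Sparcl1 (log2 change −1.49, SE 0.20) and above them for Timp1 (0.85, SE 0.16). Col18a1, the precursor of endostatin, was at 46.1, 32.6, 89.2, 99.6, 27.9 and 64.9 CPM, also with both day 3 libraries on top. The median log2 change of the 36 genes was −0.06, against 0.00 over all genes.

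Reticular fibroblastic-like cells had 3 of the matrix genes pass the test at day 3, all higher: Timp1, Vcan and Emilin1, of 47 that passed the filter on low counts, beside 2.75% of all 14703 genes. Timp1 was at 17.6, 28.3, 116, 159, 20.2 and 18.7 CPM, with both day 3 libraries far above the other 4. Its log2 change was 2.64 (SE 0.23), a fold of 6.25 (edgeR quasi-likelihood test, Benjamini-Hochberg adjusted p = 0.0067). Vcan, with the levels given above, rose by 1.41 on the log2 scale (SE 0.20), a fold of 2.65 (adjusted p = 0.025). Emilin1, an elastic fibre glycoprotein at chr5:30913402-30921277, was at 79.3, 64.9, 111, 133, 75.8 and 75.7 CPM. It rose by 0.84 (SE 0.17), a fold of 1.79 (adjusted p = 0.049). In all 3 genes both day 3 libraries were above the other 4. These calls rest on both day 3 libraries together: without the one labelled Cre-negative the adjusted p was 0.45 for Vcan, 0.14 for Timp1 and 0.55 for Emilin1, and without the one labelled Cre-positive it was 0.10, 0.083 and 0.16, with the lone day 3 library assumed to vary like the other groups. In cells with a Y-linked UMI alone, a set chosen after the data were seen, the 3 adjusted p-values were 0.11, 0.060 and 0.11. With doublets kept, that of Vcan was 0.053. Emilin1 also missed the threshold without the vehicle library labelled Cre-positive (0.059) and under 4 of the other settings.

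Other matrix genes of reticular cells lay near the threshold. Dcn was at 11060, 12020, 4389, 6403, 11020 and 11060 CPM, with both day 3 libraries below the other 4 and a log2 change of −1.04 (SE 0.24, edgeR adjusted p = 0.056). Tnc was at 85.4, 71.1, 132, 139, 66.8 and 85.2 CPM (adjusted p = 0.050). Timp3, a matrix-bound protease inhibitor, was at 71.2, 70.3, 41.6, 35.5, 74.5 and 78.01 CPM (adjusted p = 0.051). Fbln1, fibulin-1, was at 159, 87.1, 40.0, 47.0, 84.3 and 170 CPM (adjusted p = 0.067). DESeq2 called 8 of 47 genes with an adjusted p in this comparison, beside 6.37% of genes: the 3 above with Tnc and Col6a3 higher and Dcn, Timp3 and Fbln1 lower. Of the 9 fibrillar and associated collagens, edgeR called none at day 3 and 1 was under 0.05 before adjustment, beside 26.4% of all genes. Col1a1, a chain of type I collagen, gave 2099, 1627, 1643, 2358, 1714 and 3133 CPM, a log2 change of 0.14 (SE 0.29, adjusted p = 0.80). Over the 47 genes the median log2 change was 0.01, against −0.03 over all genes.

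The reticular class was made of 3 clusters whose sizes changed with treatment, so levels were also read within each. Vcan is given here for clusters 4 and 5 alone, and Emilin1 for none of the 3. In cluster 4, Vcan was at 34.5, 41.3, 116.6, 106.5, 53.4 and 47.98 CPM and Dcn at 14780, 15890, 7154, 9248, 15630 and 15510 CPM. In cluster 5, which held 174, 299, 864, 528, 310 and 562 cells, Vcan was at 10.8, 19.2, 51.0, 68.9, 8.36 and 18.4 CPM and Dcn at 7766, 5863, 3776, 4926, 5656 and 8389 CPM. Timp1 was highest in both day 3 libraries within clusters 4, 5 and 18. Dcn was lowest in both day 3 libraries within clusters 4 and 5, and highest in both within cluster 18, at 3164 and 3768 CPM against 1193 to 2320 CPM. Beside these values, reticular cells at day 3 had median depths of 12706 and 14433 UMIs per cell against 5704 to 8450 in the other libraries. Their 4 cycling markers summed to 255 and 166 CPM at day 3 and to 5.20 to 51.0 CPM elsewhere. The fibroblastic marker list (10 rows, of which 1 is a second row of Ccl19) summed to 13280 and 8667 CPM at day 3 and to 5428 to 7352 CPM elsewhere, and the part of these in the result was not tested.

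**Figure D4:**
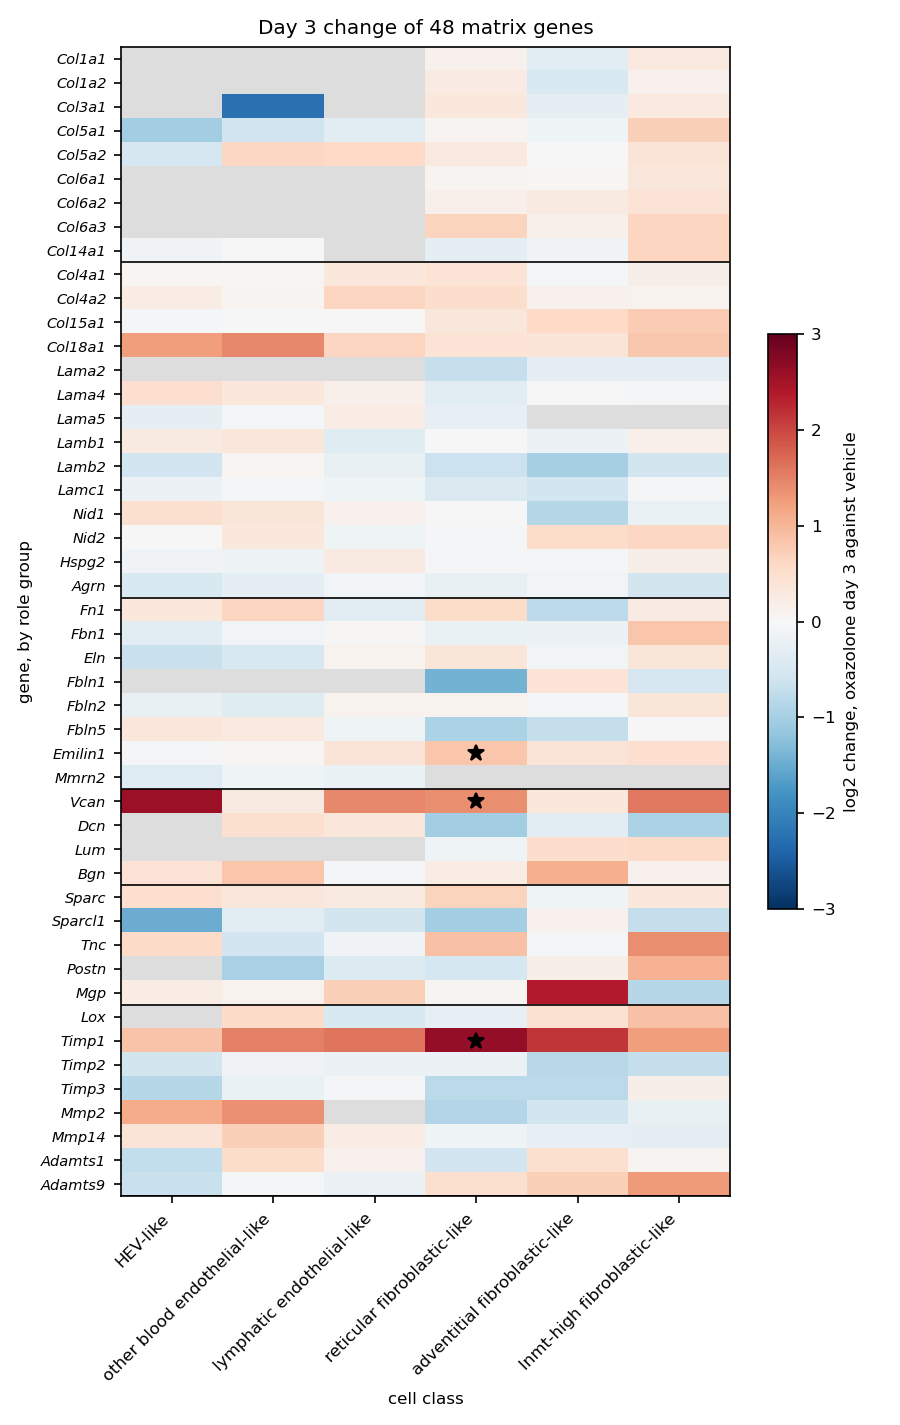
Fitted log2 change at day 3 against vehicle for each of the 48 genes (rows) in the 6 fitted stromal classes (columns). Stars mark an adjusted p under 0.05 in edgeR and are not drawn in the HEV-like column, whose comparison selected the list, and grey marks genes not tested. The stars are in the reticular column, at Timp1, Vcan and Emilin1.

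In the other fitted classes none of the matrix genes passed the adjusted threshold at day 3 in edgeR, whereas DESeq2 called 1 in other blood endothelial-like, 2 in adventitial and 1 in monocyte/macrophage-like cells. In other blood endothelial-like cells edgeR called 0 of 40 genes, as it called 0.0% of all 14124. Before adjustment 12 were under 0.05 and 11 of these were higher, beside 16% of all genes. DESeq2 called 1 of 34 genes with an adjusted p, Timp1, beside 0.695% of genes. Timp1 was at 8.57, 4.73, 16.8, 19.2, 7.42 and 8.40 CPM, above every other library at day 3. The higher genes included Nid1 at 160, 133, 184, 178, 139 and 161 CPM and Adamts1, a versican-cleaving protease, at 209, 251, 296, 347, 236 and 251 CPM. The make-up of this class shifted between libraries. Capillary-like cells were 1281, 1156, 1869, 1146, 611 and 829 of its 3590, 3500, 3104, 3831, 3194 and 2517 cells. The part of this shift in these values, and in the class pairs below, was not tested. In lymphatic endothelial-like cells edgeR called 0 of 37 (0.0% of genes), 2 were under 0.05 before adjustment (5.88% of genes) and DESeq2 called 0 of 26 with an adjusted p (0.0233%). Those 2 were Vcan and Timp1, the latter at 9.54, 6.00, 24.1, 23.9, 9.29 and 19.1 CPM.

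In adventitial cells edgeR called 0 of 46 genes (0.0% of all), with 12 under 0.05 before adjustment, 4 of them higher (10.7% of genes), and 2 of 40 with an adjusted p called by DESeq2 (1.82%), Mgp higher and Nid1 lower. Nid1 gave 1539, 1516, 723, 1135, 1385 and 1735 CPM there, and Mgp 59.4, 12.4, 154, 185, 99.9 and 77.1 CPM. Timp1 gave 41.0, 18.02, 174, 96.3, 30.3 and 39.7 CPM, with both day 3 libraries above the other 4 (log2 change 2.14, SE 0.32, adjusted p = 0.18). In Inmt-high cells edgeR called 0 of 46 (0.0099% of genes), with 9 under 0.05 before adjustment, 7 of them higher (10.6%), and 0 of 43 with an adjusted p called by DESeq2 (0.435%). Vcan had a log2 change of 1.59 (SE 0.32, adjusted p = 0.18) and Timp1, at 104, 63.1, 220, 200, 84.3 and 95.1 CPM, one of 1.25 (SE 0.25, adjusted p = 0.18). Over 14 other settings the change was 0.95 to 1.885 for Vcan and 0.956 to 1.668 for Timp1, and whether either passed the threshold depended on the setting. In monocyte/macrophage-like cells 10 genes could be tested and edgeR called 0 (0.0209% of genes), 5 were under 0.05 before adjustment (8.02%) and DESeq2 called 1 of 11 with an adjusted p (0.284%), Timp2, which was at 199, 306, 74.6, 128, 222 and 210 CPM. Mmp14, a membrane-bound collagenase, was at 40.1, 37.4, 120, 83.5, 94.0 and 46.2 CPM in these cells. Mural-like cells were not fitted, since 1 library held 17 of them.

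Whether the day 3 change differed between classes was tested for 3 pairs, with HEV-like cells left out. Lymphatic against other blood endothelial-like cells gave 0 of 40 matrix genes by edgeR (0.00679% of genes), 7 under 0.05 before adjustment (4.41%) and 0 of 48 by DESeq2 (0.0%). Reticular against other blood endothelial-like cells gave 1 of 48, Mmp2, beside 0.365% of genes, and DESeq2 called that gene alone of 47 with an adjusted p (0.379%). Mmp2, gelatinase A (chr8:92827291-92853420), was at 152, 100, 47.99, 93.6, 84.4 and 212 CPM in reticular cells and at 0.819, 0.460, 1.19, 2.04, 0.956 and 1.53 CPM in other blood endothelial-like cells, on 7 to 36 UMIs. The difference of log2 changes was −2.29 (SE 0.38, edgeR adjusted p = 0.020). It missed the threshold without the day 3 library labelled Cre-positive (0.058), without either vehicle library (0.062 and 0.050) and in cells with a Y-linked UMI (0.58). Adventitial against reticular cells gave 1 of 47, Fbln1 (chr15:85205949-85286535), beside 0.327% of genes, and DESeq2 called 2 of 45 with an adjusted p, Fbln1 and Fn1 (0.849%). Fbln1 was at 301, 131, 305, 278, 162 and 177 CPM in adventitial cells, with reticular levels as given above. The difference was 1.76 (SE 0.25, adjusted p = 0.026), and 0.087 was the adjusted p without the day 3 library labelled Cre-negative. For Vcan, the change in adventitial cells was lower than in reticular cells by 1.14 on the log2 scale, a difference that did not pass (adjusted p = 0.18).

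Genes that act with the matrix genes were read from 5 lists of 104 genes. Of 17 versican and hyaluronan partners, 16 were tested in reticular cells at day 3 and 1 rose, Hmmr, which encodes a hyaluronan-binding protein also made by cycling cells (log2 change 4.40, SE 0.82, adjusted p = 0.043). In HEV-like cells 9 were tested and Itih5, a hyaluronan-binding inhibitor chain, was lower by a log2 change of −1.29. Of 17 collagen processing genes, all tested in reticular cells, 1 rose, the prolyl hydroxylase P3h1 (0.91, SE 0.18, adjusted p = 0.048), and 9 were higher under 0.05 before adjustment, a threshold that 26.4% of all genes passed in either direction. Of 21 matrix receptors, 20 were tested in reticular cells and the integrin chain Itgb4 fell by 2.36 (SE 0.47, adjusted p = 0.047). Of 18 TGF-beta axis genes, all tested, the latency protein Ltbp4 fell by 2.29 in reticular cells (SE 0.22, adjusted p = 0.012), and this change was lower than in other blood endothelial-like cells by 2.13 (adjusted p = 0.0058) and than in adventitial cells by 1.81 (adjusted p = 0.045). In HEV-like cells Ltbp2 (−1.37) and Tgfbr3 (−0.87) were lower. The edgeR adjusted p in that class was 0.038 for Ltbp2, 0.042 for Tgfbr3 and 0.046 for Itih5. Nothing is read from these calls, since that contrast chose the list. Of 31 other matrix genes, 30 were tested in reticular cells: Col12a1 and Efemp2 rose and Ecm2 and Ogn fell. Has2, a hyaluronan synthase, had a day 3 change lower in adventitial than in reticular cells by 1.33 (adjusted p = 0.048), and Ecm2 one lower in reticular than in other blood endothelial-like cells by 1.47 (adjusted p = 0.038). These lists passed no other gene in the 10 fits at day 3. Beside these calls, edgeR called 2.75% of all genes in reticular and 1.53% in HEV-like cells, 0.365% for reticular against other blood endothelial-like and 0.327% for adventitial against reticular cells. All 8 calls in reticular cells were lost without either day 3 library, and 1 of the 8 was left with doublets kept or in cells with a Y-linked UMI. With the scaling of DESeq2 in edgeR (RLE) or with free RNA subtracted 3 of the 8 were left, in cells with at least 2000 UMIs or without the vehicle library labelled Cre-positive 5, and with DESeq2 or without the vehicle library labelled Cre-negative 7. Both calls of adventitial against reticular cells were lost without either day 3 library, without the vehicle library labelled Cre-positive, with free RNA subtracted, with the matrix genes among the clustering genes and in cells with a Y-linked UMI. With RLE, with DESeq2, in cells with at least 2000 UMIs or without the vehicle library labelled Cre-negative 1 of the 2 was left. Of the 2 calls of reticular against other blood endothelial-like cells, that of Ecm2 was lost without the vehicle library labelled Cre-positive or the day 3 library labelled Cre-negative. It was also lost with DESeq2, with doublets kept, with free RNA subtracted and in cells with a Y-linked UMI, and that of Ltbp4 passed under each of these settings.

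At day 7 none of the matrix genes passed the adjusted threshold. Over the 7 class fits edgeR called 0 of 262 tests of matrix genes, as it called 0.0% of all 83407 tests. Before adjustment 16 were under 0.05 (2.27% of all tests), and DESeq2 called 0 of 333, all of which had an adjusted p (0.0028%). Over the 3 class pairs edgeR called 0 of 135 (0.0%), 12 were under 0.05 before adjustment (2.6%) and DESeq2 called 0 of 144, all with an adjusted p (0.0%). Of the 16, 10 were in adventitial cells, 9 of them higher, where 4.43% of all genes were under 0.05. They included Col4a1 at 570, 624, 460, 811, 1380 and 1194 CPM and Col4a2 at 289, 265, 287, 358, 713 and 450 CPM, each with both day 7 libraries above the other 4 and an adjusted p of 0.81. The day 7 library labelled Cre-negative held 72 adventitial cells. For Vcan in HEV-like cells the day 7 change was −0.19 (SE 0.34, adjusted p = 0.97), and in reticular cells 0.21 (SE 0.20, adjusted p = 1.0).

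The Cre label moved none of the matrix genes past the adjusted threshold. Over the 7 class fits edgeR called 0 of 262 tests (0.00599% of all), 26 were under 0.05 before adjustment, 17 of them higher in the libraries labelled Cre-positive (5.82% of all), and DESeq2 called 0 of the 307 with an adjusted p (0.078%). Over the 3 pairs edgeR called 0 of 135 (0.00677%), 18 were under 0.05 before adjustment (4.58%) and DESeq2 called 0 of 144, all with an adjusted p (0.0083%). For Vcan the log2 difference, labelled Cre-positive minus Cre-negative, was −0.28 (SE 0.24) in HEV-like and 0.18 (SE 0.16) in reticular cells. Lama4 in HEV-like cells gave 34.4, 41.0, 41.0, 67.7, 26.9 and 65.2 CPM, higher in the library labelled Cre-positive at each treatment (0.72, SE 0.17, adjusted p = 0.42). Timp1 in HEV-like cells was lower in it at each treatment (−0.57, SE 0.13, adjusted p = 0.41). In reticular cells the median label difference of the 47 genes was 0.28, against −0.01 over all genes. A test of the interaction of label and treatment was not possible with 1 library per group.

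Sex-linked RNA differed between libraries, and Vcan was read within it. Xist, expressed from the inactive X chromosome, was at 2.51 CPM in HEV-like and 0.339 CPM in reticular cells of the vehicle libraries labelled Cre-positive, against 206 to 387 CPM and 174 to 407 CPM in the same classes of the other libraries. Within each day 3 library, HEV-like cells with a Xist UMI and no Y-linked UMI had more Vcan than those with a Y-linked and no Xist UMI. The levels were 121 CPM (exact 95% Poisson interval 109.2 to 133.2, 280 cells) against 35.3 CPM (26.4 to 46.2, 149 cells) in the library labelled Cre-negative. They were 85.7 CPM (73.6 to 99.1, 220 cells) against 35.1 CPM (28.5 to 42.9, 283 cells) in the one labelled Cre-positive. Of the other CD31 libraries, the vehicle library labelled Cre-positive, with almost no Xist, gave no such comparison. In the rest the 2 kinds of cell had overlapping intervals: 13.03 against 8.85 CPM at vehicle labelled Cre-negative, 11.4 against 8.61 and 12.8 against 10.9 CPM at day 7. In reticular cells the order was not the same in every library: 66.4 against 57.8 CPM and 122.7 against 63.3 CPM at day 3, and 19.3 against 29.4 CPM at vehicle and 18.1 against 51.9 CPM at day 7 in the libraries labelled Cre-negative. Sparcl1 in HEV-like cells at day 3 was lower in cells with Xist (62.6 and 54.3 CPM) than in cells with Y-linked UMIs (110.5 and 118.8 CPM). The split was chosen after the data were seen, and since the labels do not tie cells to animals, sex and animal cannot be told apart. With almost no Xist in the vehicle libraries labelled Cre-positive, sex is partly confounded with treatment and Cre label. This holds for all comparisons above, those of Vcan included.

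**Figure D5:**
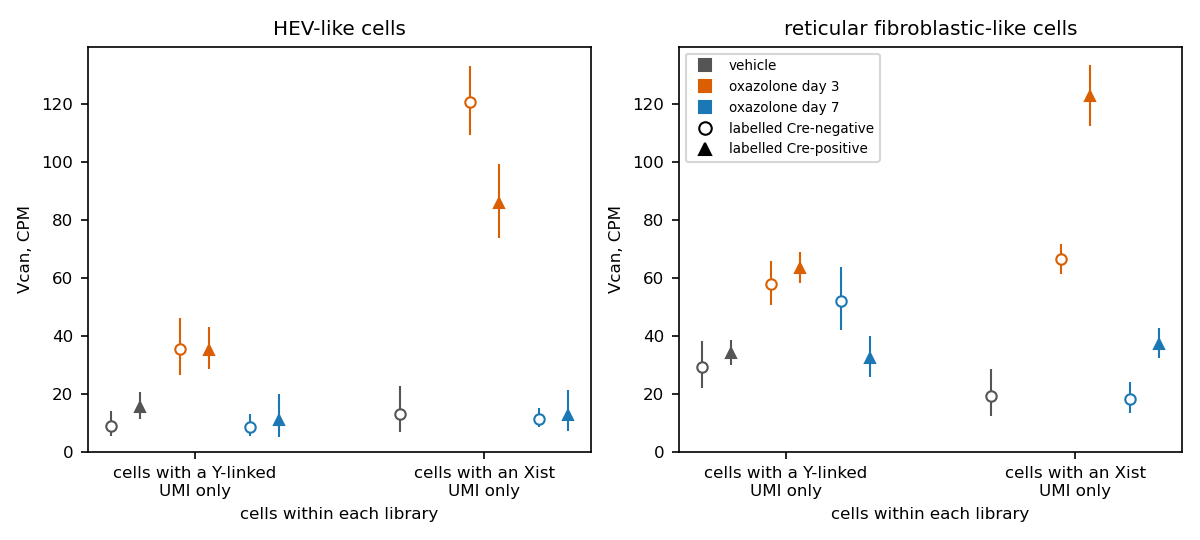
Vcan level in CPM (linear axis) of HEV-like and reticular cells with a Y-linked UMI and no Xist UMI, and with a Xist UMI and no Y-linked UMI, in each library, with exact 95% Poisson intervals. At day 3 the HEV-like cells with Xist lie at 121 and 85.7 CPM and those with Y-linked UMIs at 35.3 and 35.1 CPM.

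In both fractions, the vehicle library labelled Cre-positive and the day 7 library labelled Cre-negative were low together for a number of matrix genes, most of all in Inmt-high cells. The pattern was seen after the values were known. In Inmt-high cells both were below the other 4 libraries for 26 of 46 genes, beside 13.3% of all genes. Sparc gave 8219, 3275, 6988, 9469, 2908 and 11910 CPM there, and Col1a1 8841, 3223, 7624, 8220, 3542 and 10740 CPM. The median log2 ratio of the 2 libraries to the other 4 was −0.66 over the 46 genes and −0.11 over all genes. In reticular cells 8 of 47 genes showed this order (8.88% of genes), with a median log2 ratio of −0.32 against −0.03, and in adventitial cells 8 of 46 (7.17%). In other blood endothelial-like cells 10 of 40 showed it (11.6%) and in lymphatic endothelial-like cells 8 of 37 (7.88%). In HEV-like cells both were lowest for 6 of 36 genes (17.4%) and highest for 7 (6.65%), and in monocyte/macrophage-like cells lowest for 2 of 10 (10.2%) and highest for 2 (14.6%). Fos, an immediate early gene, was at 1206, 2712, 821, 1777, 2560 and 1200 CPM in Inmt-high cells, so that the same 2 libraries were highest; its part in the pattern was not tested.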

How the data were processed

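Single-cell RNA was counted in 12 libraries, 1 per group. The authors deposited UMI counts per gene and barcode, as whole numbers and not normalized. The submitters' processing notes name Cell Ranger 7.0.1 and the genome build mm10, whereas the file headers name Cell Ranger version 4; annotation and further settings are not given in the sources used here. The 48 genes, the lists and the tests were chosen with earlier results of these data known.

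A barcode passed as a cell with 1000 or more UMIs, 500 or more genes and no more than 10% of UMIs from mitochondrial genes. Putative doublets were removed by their Scrublet score at a rate of 0.8% per 1000 cells. Cells were clustered per fraction (scanpy 1.11.5, 2000 variable genes without the 48 genes and the companion lists, 30 principal components, 20 neighbours, Leiden resolution 1), and clusters were named from markers. Counts were summed per class and library and tested with edgeR 4.0.16 (R 4.3.3), with the quasi-likelihood test, TMM scaling and a filter on low counts. DESeq2 1.42.0 was an alternative. Genes were named by rule: Vcan; the members with the highest mean of each role group, at most 2 per group; the members called, at most 8 per comparison; and the companion genes called, at most 4 per list. Other genes named were chosen after their values were seen. The fits of fibroblastic cells had been meant for the CD31 libraries; these held too few, so the CD45 libraries were used, a choice made after seeing the data. Fits of class pairs had the library (or the combination of label and treatment) as a block. Reticular against other blood endothelial-like cells therefore spans separate fractions. Mural-like cells were not fitted. The code of the fits was run on simulated counts, whose spread was set and not taken from these libraries, so this says nothing about the calls above. The SE given with an edgeR log2 change was derived from it, as its absolute value over the square root of the F statistic. Intervals are 95% and cover counting error only.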

Additional observations from a re-analysis of the deposited data

Results flagged for a closer look

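Mmp2 changed differently at day 3 in reticular fibroblastic-like than in other blood endothelial-like cells, with a difference of log2 changes of −2.29. It rests on 7 to 36 UMIs per library in other blood endothelial-like cells. Fbln1 changed differently at day 3 in adventitial than in reticular fibroblastic-like cells, with a difference of log2 changes of 1.76. Both were singled out because the difference itself passed the adjusted threshold in edgeR.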

How the results depend on the processing

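The counts below are of matrix genes called. Nothing is read from those in HEV-like cells at day 3, the comparison that selected Vcan. Without the filter on low counts edgeR called 11 in HEV-like cells at day 3, 1 in other blood endothelial-like, 1 in lymphatic, 9 in reticular, 10 in adventitial, 4 in Inmt-high and 6 in monocyte/macrophage-like cells. It then called 7 for reticular against other blood endothelial-like and 6 for adventitial against reticular cells, 10 over the class fits and 2 over the pairs at day 7, and 12 and 6 for the Cre label. These were of 333 tests of matrix genes over the class fits and 144 over the pairs. Over all genes it then called 309 of 142918 tests and 112 of 72287 at day 7. For the label it called 925 and 226 of the same numbers of tests. At day 3 this setting called 7.19% of all genes in HEV-like cells, 0.354% in other blood endothelial-like, 0.645% in lymphatic, 8.74% in reticular, 2.49% in adventitial, 1.33% in Inmt-high and 1.71% in monocyte/macrophage-like cells, and 1.55% and 1.66% for the pairs named. DESeq2 called 4 in HEV-like cells at day 3, 1 higher and 3 lower, where edgeR, with Vcan left aside, called Timp1 higher and Sparcl1 lower. At day 3 it called 1 in other blood endothelial-like, 8 in reticular, 2 in adventitial and 1 in monocyte/macrophage-like cells. For adventitial against reticular cells it called 2 (0.849% of genes). These counts are among the genes to which it gave an adjusted p. With doublets kept, reticular cells gave 1 (0.401% of all genes) and adventitial against reticular cells 2 (0.709%). With the matrix genes among the clustering genes, reticular cells gave 6 (3.85%), Inmt-high cells 3 (1.31%) and reticular against other blood endothelial-like cells 2 (0.447%). The Inmt-high class then held 426, 232, 170, 161, 163 and 493 cells, against 358, 234, 86, 77, 142 and 262 in the main clustering. In cells with a Y-linked UMI, an alternative added after seeing the data, reticular cells gave 0 (0.151%), monocyte/macrophage-like cells 1 (0.355%), reticular against other blood endothelial-like cells 0 (0.321%), the pairs at day 7 1 of 37 genes called and the pairs for the label 3 of 81. Leaving out each library in turn gave 0 to 12 in HEV-like, 0 to 1 in other blood endothelial-like, 0 to 3 in lymphatic, 0 to 8 in reticular, 0 to 7 in adventitial, 0 to 17 in Inmt-high and 0 to 4 in monocyte/macrophage-like cells. It gave 0 to 3 for lymphatic against other blood endothelial-like, 2 to 6 for reticular against other blood endothelial-like and 0 to 6 for adventitial against reticular cells. At day 7 it gave 0 to 9 over the class fits and 1 to 6 over the pairs, and for the label 0 to 10 and 0 to 10. The cause of these changes was not tested. A fit without a library has 1 library left in a treatment, and the counts over all genes moved too, as given next. Nothing particular to the matrix genes is read from the counts with a library left out. Over all genes, reticular cells at day 3 had 405 called, with 19 to 2020 under the other settings and 1 to 1651 with a library left out; HEV-like cells had 181, with 73 to 1467 and 0 to 1566. With a library left out, the genes called at day 3 numbered 0 to 196 in other blood endothelial-like, 2 to 109 in lymphatic, 0 to 262 in adventitial, 0 to 274 in Inmt-high and 1 to 284 in monocyte/macrophage-like cells. For the pairs they numbered 1 to 100 for lymphatic and 77 to 374 for reticular against other blood endothelial-like and 14 to 473 for adventitial against reticular cells. At day 7 they numbered 1 to 415 over the class fits and 13 to 234 over the pairs, and for the label 10 to 944 and 24 to 456. No paired analysis was possible because each group is 1 library and the labels carry no animal numbers that would pair treatments or Cre labels; the fits of class pairs already had the library as a block, or for reticular against other blood endothelial-like cells the combination of label and treatment. Mural-like cells numbered 17 to 50 a library and were not fitted.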
